A study of Mus musculus with 8 samples.

Results

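Hox cluster genes were followed in the small intestine of mice given dexamethasone, the gamma-secretase inhibitor DBZ, both drugs, or vehicle. Every probe set of the array whose single annotated symbol was a Hox cluster gene was taken, which gave 37 of 22690 probe sets. They stood for 31 of the 39 Hox genes in the RefSeq table (GRCm38.p6). The HoxA cluster on chromosome 6 had 12 probe sets of 9 genes, HoxB on chromosome 11 had 10 of 9 genes, HoxC on chromosome 15 had 8 of 6 genes, and HoxD on chromosome 2 had 7 of 7 genes. A further 3 probe sets named a pair of Hox genes each and were left out.

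Hox genes encode homeodomain transcription factors that lie in 4 clusters, each a row of paralogues numbered along the chromosome. Low-numbered paralogues are active toward the head of the embryo and high-numbered ones toward the tail, in the order in which they lie in the cluster. In the gut the genes are expressed to a large part in the mesenchyme that forms muscle and connective tissue, and the highest paralogues mark the hindgut.

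Small intestine came from 6-week-old female C57/Black6 mice injected intraperitoneally once a day for 5 days. Dexamethasone, a synthetic glucocorticoid, was given at 15 mg/kg, and DBZ, which blocks the enzyme that activates Notch receptors, at 10 µmol/kg. The combination received both at these doses, and vehicle mice received dimethyl sulfoxide alone. The design gives 2 mice for each of the 4 groups, and the labels name no segment of the intestine.

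Both DBZ columns carried the same value in 22684 of 22690 probe sets, and in the other 6 a single copy read 0. They were counted as 1 array. The data thus held 7 arrays, 1 of DBZ and 2 of every other group, and every p-value measures the spread between these few arrays. Signals are MAS5 intensities scaled here to a trimmed mean of 250 per array. As deposited, that mean was 250 in the 5 treated arrays and 500 in both vehicle arrays. Spearman correlations between a treated and a vehicle array lay between 0.925 and 0.940, and those between different treated groups between 0.940 and 0.959. The 3' to 5' signal ratios peaked in the DBZ array, at 1.80 for Gapdh and 2.17 for beta-actin, against 0.905 to 1.22 and 1.22 to 1.79 in the other arrays. All 12 genes of an epithelial marker list averaged above the filter on low signals, while Fabp6, the bile acid binding protein of the ileum, had signals between 1116 and 11866 in the treated arrays and of 0.640 and 1.22 in the vehicle arrays. Reg1, which encodes a secreted regenerating protein, had 54.7 to 101 in treated arrays and 7193 and 8090 in vehicle arrays.

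Most Hox probe sets gave low signals. Tests were limited to probe sets whose mean signal over the 7 arrays reached 38.8, the pooled 40th percentile, and 10 Hox probe sets of 9 genes did so. None of the 14 probe sets for paralogues 9 to 13 and none of the 7 for HoxD passed, against 4 of 12 for paralogues 1 to 4 and 6 of 11 for paralogues 5 to 8. Of all 22626 probe sets that are not controls, 13638 passed. Probe sets differ in how strongly they bind, so these counts and signals do not rank the expression of different genes.

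**Figure D1:**
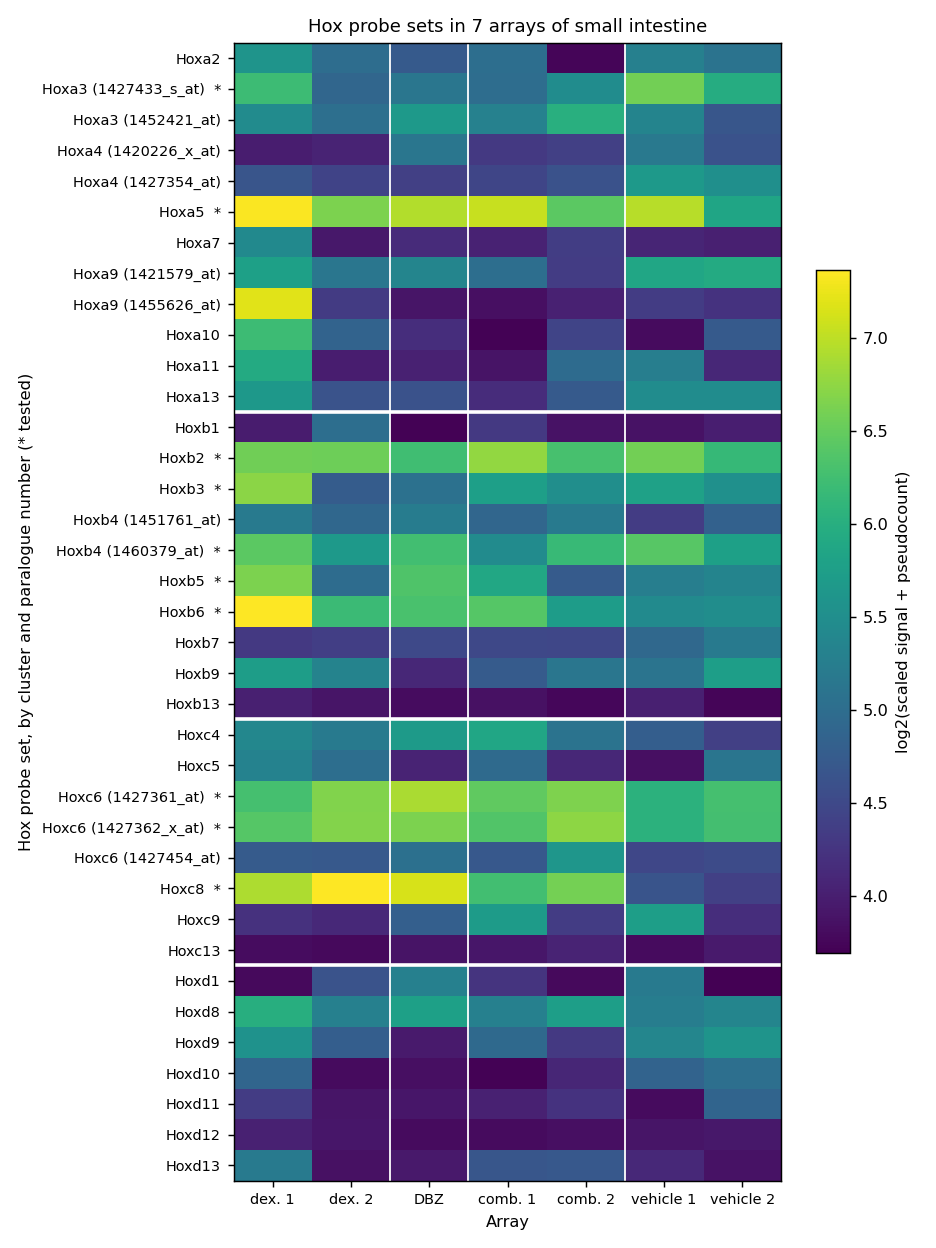
Signals of all 37 Hox probe sets (rows, by cluster and paralogue number, asterisks marking the 10 tested) in the 7 arrays (columns: dex., dexamethasone; DBZ; comb., combination; vehicle), coloured by log2 of scaled signal plus the pseudocount of 12.3. Hoxc8 is bright in the 5 treated arrays and dark in both vehicle arrays, and Hoxa9 (1455626_at) is bright in dexamethasone replicate 1 alone.

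Hoxc8 was the tested Hox gene whose difference between treated and vehicle intestine passed. Hoxc8 takes part in patterning the thoracic region and the motor neurons that serve the forelimb. Its signals were 108 and 152 in the dexamethasone arrays, 129 in the DBZ array and 63.9 and 84.9 in the combination arrays, against 12.7 and 8.63 in the vehicle arrays. All 5 treated arrays lay above both vehicle arrays, and the combination arrays lay below the other treated ones. Mean signals were 130 ± 31.1 with dexamethasone, 129 in the DBZ array and 74.4 ± 14.9 with the combination, against 10.7 ± 2.91 with vehicle (SD, n = 2, except 1 DBZ array). No fold is given, since the vehicle mean lay below the pseudocount of 12.3 and the files hold no detection calls.

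On the log2(signal + 12.3) scale, which understates changes of low signals, Hoxc8 rose by 2.62 ± 0.29 with dexamethasone (SE, limma adjusted p = 0.000931), by 2.63 ± 0.36 with DBZ (adjusted p = 0.00442) and by 1.91 ± 0.29 with the combination (adjusted p = 0.00622). These comparisons share the vehicle arrays. The mean of the 3 treated groups exceeded vehicle by 2.39 ± 0.25 (adjusted p = 0.000571). The rise with the combination no longer passed without combination replicate 2 (1.73, adjusted p = 0.0711). Hoxc8 was tested because its treated arrays were high, its vehicle signals lying below the filter. It was the 1 member of 10 tested that rose in each of these comparisons, and limma called 0 lower. Of all 13638 tested probe sets, 7.22% rose with dexamethasone, 3.74% with DBZ and 4.38% with the combination, each against vehicle, and 8.10% in the mean of the treated groups, where 6.97% fell. A count of 1 in 10 is near these shares. At unadjusted p under 0.05 there were 2 Hox probe sets in each of the 3 comparisons and 3 in their mean.

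**Figure D2:**
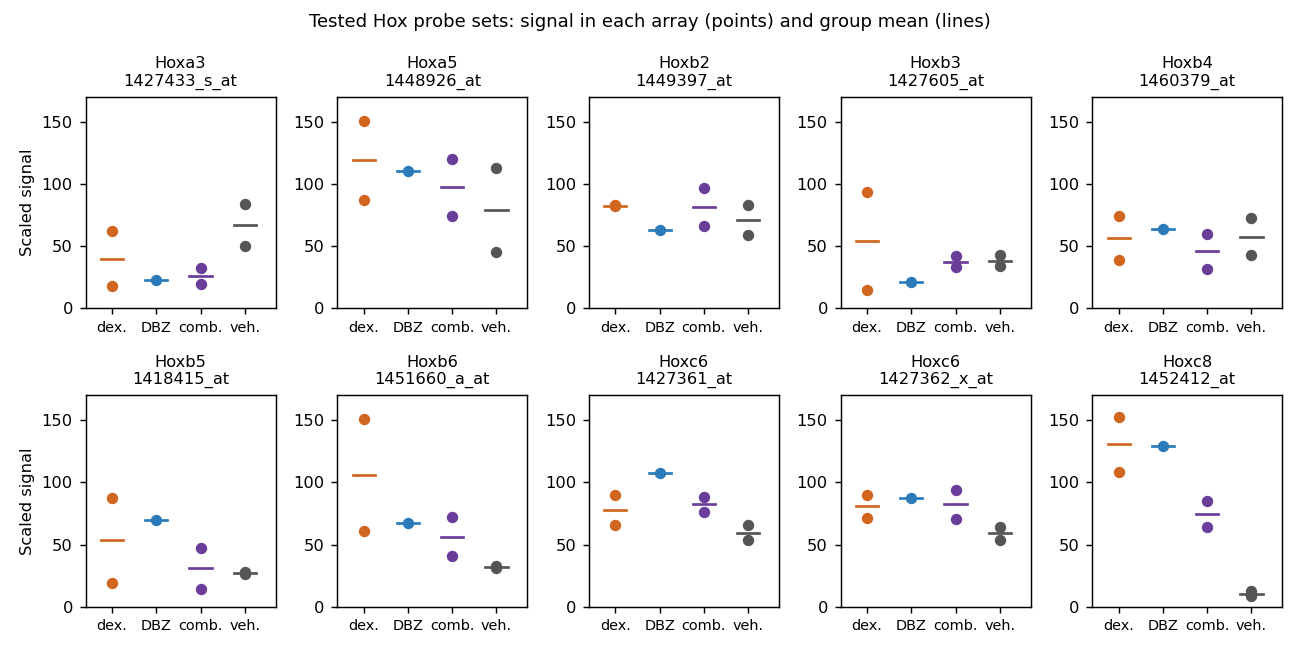
Scaled signal of the 10 tested Hox probe sets in each array (points) with the group mean (line), for dexamethasone (dex.), DBZ, the combination (comb.) and vehicle (veh.). In Hoxc8 the treated arrays lie between 63.9 and 152 and the vehicle arrays at 8.63 and 12.7, while most other members overlap between groups.

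Muscle, connective tissue and ileal genes were higher in the same arrays as Hoxc8. The smooth muscle list of 18 genes had 16 with a probe set, and in the mean of the treated groups 11 of 15 tested rose and 0 fell, with a median of 0.89 against -0.03 for all tested probe sets. Its summed signal was 30763 to 43101 in treated arrays and 16605 to 21579 in vehicle arrays. Of 17 tested fibroblast and matrix genes 10 rose and 0 fell (median 1.14), with sums of 10426 to 12766 in treated arrays and 4069 to 6850 in vehicle arrays. Of 11 tested ileal genes 9 rose and 0 fell (median 2.16), with sums of 20011 to 39714 in treated arrays and 9320 to 9618 in vehicle arrays. Among 7 tested genes of enteric neurons and glia limma called 0 (1 at unadjusted p under 0.05), with 6 higher and a median of 0.38. Their sums of 916 to 1527 in treated arrays overlapped the 970 and 981 in vehicle arrays. Of 12 epithelial genes limma called 0 (2 at unadjusted p under 0.05), with 11 higher and a median of 0.26. The epithelial sums did not overlap either, at 50476 to 64279 in treated arrays and 45534 and 47631 in vehicle arrays. No marker of these lists was listed at 0.

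Hoxc8 was also set against those sums, which are dominated by a few abundant genes. Per 1000 units of smooth muscle signal it had 1.93 to 4.70 units in treated arrays, against 0.590 and 0.520 in vehicle arrays. Per 1000 units of fibroblast and matrix signal it had 5.61 to 14.6 units in treated arrays, against 1.86 and 2.12 in vehicle arrays, and per 1000 units of ileal signal 3.19 to 4.69 units in treated arrays, against 1.37 and 0.897 in vehicle arrays. The groups did not overlap on any of these scales, which were chosen after the values were seen. The ratios rest on vehicle signals below the pseudocount and are a description. The part of muscle content and of gut position in the Hoxc8 change was not tested, and in these bulk samples fewer cells of a type and less RNA per cell cannot be told apart.

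**Figure D3:**
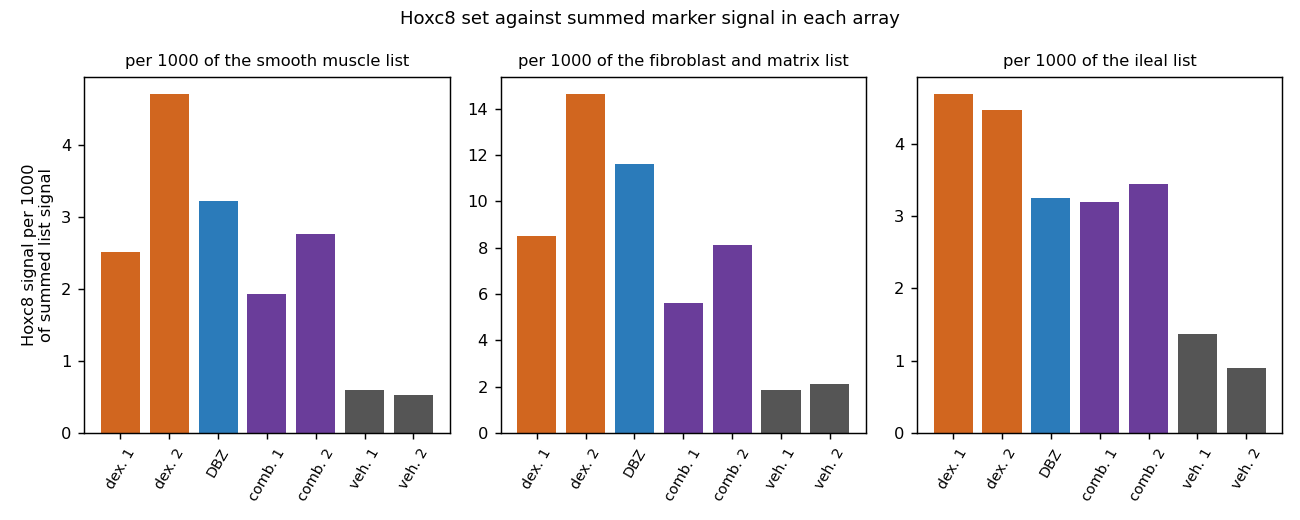
Hoxc8 signal per 1000 units of the summed signal of 3 marker lists (smooth muscle, fibroblast and matrix, ileal) in each array (bars from 0, coloured by group; dex., comb. and veh. as before). In every panel both vehicle bars are the lowest, for smooth muscle 0.590 and 0.520 against 1.93 to 4.70 in treated arrays.

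The neighbours of Hoxc8 in the HoxC row had smaller differences that did not pass. Hoxc6, which acts in the thoracic region and at the level of the forelimb, had 3 probe sets. With 1427361_at its signals were 65.5 and 89.6 with dexamethasone, 107 in the DBZ array and 76.1 and 88.2 with the combination, against 53.7 and 65.4 with vehicle. All treated arrays lay above both vehicle arrays, the lowest by a small margin, and the mean of the treated groups differed from vehicle by 0.48 ± 0.22 (adjusted p = 0.170). The cross-hybridising probe set 1427362_x_at gave 0.42 ± 0.22 (adjusted p = 0.233). Both values turned negative with the intensities as deposited (-0.38 and -0.44), where the median of all tested probe sets was -0.98. The probe set 1427454_at lay under the filter, at 13.6 to 36.9 in treated arrays and 9.88 and 10.9 in vehicle arrays.

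Hoxc4, at the head end of the HoxC row, was also under the filter, with 29.8 and 24.5 in the dexamethasone arrays, 39.2 in the DBZ array and 45.7 and 21.7 in the combination arrays, against 15.2 and 8.68 in the vehicle arrays. Its groups did not overlap. Hoxc5 ranged from 4.32 to 27.5 in treated arrays, with 1.98 and 22.4 in vehicle arrays. Hoxc9 had 5.03 to 40.1 in treated arrays and 41.7 and 5.73 in vehicle arrays, so the genes on either side of the Hoxc6 and Hoxc8 pair overlapped between groups. Hoxc13 stayed at or below 4.25 in every array.

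The HoxB genes were led by Hoxb6, a paralogue of Hoxc6 used in thoracic patterning. Its signals were 151 and 61.2 with dexamethasone, 67.2 in the DBZ array and 72.2 and 40.5 with the combination, against 31.5 and 32.9 with vehicle. The groups did not overlap, and dexamethasone replicate 1 was the highest array. The difference from vehicle was 1.30 ± 0.40 with dexamethasone (adjusted p = 0.0626) and 0.91 ± 0.34 for the mean of the treated groups (adjusted p = 0.0988), and neither passed. Leaving out 1 array at a time, the mean of the treated groups differed from vehicle by 0.72 to 1.10. Limma called Hoxb6 in dexamethasone against vehicle with the replicate block, a setting that called 1492 of all 13638 tested probe sets. With both DBZ columns as separate arrays Hoxb6 was also called in that comparison. That setting counts 1 array as 2 and raised the calls over all probe sets from 1642 to 2619, so it adds no replicate. Per 1000 units of smooth muscle signal Hoxb6 had 1.32 to 3.50 units in treated arrays, overlapping the 1.46 and 1.98 of the vehicle arrays.

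Hoxb5, which takes part in the development of enteric neurons and lung, had signals of 87.5 and 19.4 with dexamethasone, 69.4 in the DBZ array and 47.3 and 14.5 with the combination, against 26.1 and 28.2 with vehicle. Treated arrays lay on both sides of the vehicle arrays, and the mean difference of 0.53 ± 0.46 did not pass (adjusted p = 0.476). Hoxb3, a gene of the hindbrain and of neck structures, had 93.6 and 14.7 with dexamethasone, 21.2 in the DBZ array and 42.1 and 33.0 with the combination, against 43.0 and 33.8 with vehicle. The lowest and the highest of these were the 2 dexamethasone arrays, and the mean difference was -0.18 ± 0.46 (adjusted p = 0.825). With dexamethasone replicate 1 at 93.6, the mean Hoxb3 signal of 40.2 passed the filter by a small margin.

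Hoxb2, another hindbrain gene, had steady signals of 83.0 and 81.9 with dexamethasone, 62.9 in the DBZ array and 96.4 and 66.2 with the combination, against 83.1 and 59.1 with vehicle. Its difference of 0.08 ± 0.24 did not pass (adjusted p = 0.856). Hoxb4, known for its part in blood stem cells, had 74.0 and 38.5 with dexamethasone, 63.7 in the DBZ array and 32.0 and 59.8 with the combination, against 72.6 and 42.6 with vehicle, and differed by -0.05 ± 0.33 (adjusted p = 0.931). Its other probe set, 1451761_at, lay under the filter and had 17.5 to 25.2 in treated arrays, above the 7.99 and 16.1 of the vehicle arrays, so the Hoxb4 probe sets did not share a pattern.

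Of HoxA, Hoxa5 and Hoxa3 were tested. Hoxa5, which shapes the lung and the mesenchyme of the stomach and gut, had 151 and 87.2 with dexamethasone, 110.0 in the DBZ array and 120 and 74.4 with the combination, against 113 and 45.4 with vehicle. The vehicle arrays differed more than the group means did, and the mean difference was 0.48 ± 0.34 (adjusted p = 0.363). Hoxa3, needed for the thymus and parathyroid, had 62.0 and 17.7 with dexamethasone, 22.8 in the DBZ array and 19.9 and 32.4 with the combination, against 83.5 and 50.3 with vehicle (1427433_s_at). Both vehicle arrays were high, dexamethasone replicate 1 lay between them, and the difference of -0.96 ± 0.39 did not pass (adjusted p = 0.124). The other Hoxa3 probe set, 1452421_at, ran the other way, at 20.3 to 52.3 in treated arrays and 28.5 and 13.3 in vehicle arrays.

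Over all 37 members, groups that did not overlap were found in both directions. All 5 treated arrays lay above both vehicle arrays in 7 probe sets, against 11.0% of the 22626 probe sets that are not controls. They were Hoxb4 (1451761_at), Hoxb6, Hoxc4, Hoxc8 and the 3 of Hoxc6, so 5 of the 7 were of HoxC. All treated arrays lay below both vehicle arrays in 3 probe sets, against 13.8% of all. With the intensities as deposited these counts were 1 (Hoxc8) and 15, and with quantile normalisation 5 and 3.

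The members below vehicle were Hoxa4, Hoxb7 and 1 probe set of Hoxa9, all with low signals. Hoxa4, a gene of the neck region and of lung mesenchyme, had 12.9 and 9.33 with dexamethasone, 8.59 in the DBZ array and 9.77 and 12.3 with the combination, against 38.8 and 33.4 with vehicle (1427354_at). The treated arrays were all near the pseudocount. In a fit with no filter, where limma called 2 of 37 Hox probe sets and 6.75% of all in the mean of the treated groups, Hoxa4 fell by 1.10 ± 0.27 on the log2 scale (adjusted p = 0.0466) and Hoxc8 was the other call. The other Hoxa4 probe set, 1420226_x_at, reached 22.6 in treated arrays, against 24.0 and 12.3 in vehicle arrays, and overlapped. Hoxb7 had 7.34 to 10.2 in treated arrays and 18.2 and 24.3 in vehicle arrays. Hoxa9 (1421579_at) had 8.02 to 42.7 in treated arrays and 46.2 and 49.2 in vehicle arrays.

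Arranged by paralogue number, the differences from vehicle without a filter were positive in 6 of 12 probe sets of paralogues 1 to 4 (median 0.01), in 10 of 11 of paralogues 5 to 8 (median 0.47) and in 4 of 14 of paralogues 9 to 13 (median -0.25). The median of all probe sets was -0.05. The exception in the middle class was Hoxb7. Of the highest class, Hoxb13, Hoxc13 and Hoxd12 stayed at or below 4.25 in every array, while Hoxd9 had 3.28 to 35.1 in treated arrays and 29.3 and 36.1 in vehicle arrays, and Hoxd10 had 0.816 to 17.3 in treated arrays and 16.8 and 20.3 in vehicle arrays. Hoxd13 reached 24.0 and Hoxd11 16.9 in their highest array. The remaining low members also overlapped between groups: Hoxa2 reached 36.1 in treated arrays, with 26.8 and 21.8 in vehicle arrays, and Hoxb9 had 4.75 to 41.1 in treated arrays and 22.2 and 41.8 in vehicle arrays. Hoxd8 had 26.7 to 51.4 in treated arrays and 25.5 and 28.7 in vehicle arrays, and this 51.4 was the highest signal of any HoxD probe set. Hoxb1 and Hoxd1 were highest in a treated array, Hoxd1 at 27.0. These medians describe mostly low signals and no list was tested.

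**Figure D4:**
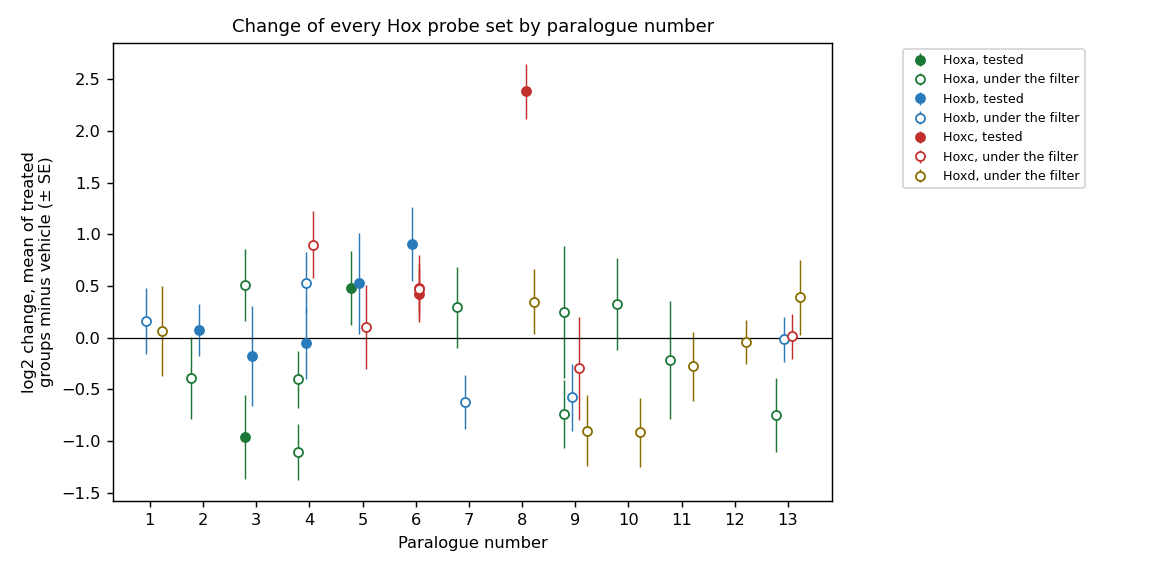
Difference on the log2 scale between the mean of the 3 treated groups and vehicle (vertical axis, ± SE, from the fit with no filter) against paralogue number for all 37 Hox probe sets, coloured by cluster, with filled points for the 10 tested. Hoxc8 stands at 2.39, and the probe sets of paralogues 9 to 13 have a median of -0.25.

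The dexamethasone replicates differed in their Hox signals more than other replicate pairs, by a median of 0.60 log2 units in size, with 0.46 for the combination and 0.26 for vehicle. Over all probe sets these medians were 0.24, 0.27 and 0.30 in the same order, and most Hox signals were low. Dexamethasone replicate 1 exceeded replicate 2 in 30 of 37 probe sets with a median log2 difference of 0.43, while over all 22626 probe sets it did so in 52.3% with a median of 0.02. Combination replicate 1 exceeded replicate 2 in 15 of the 37 (median -0.13) and vehicle replicate 1 exceeded replicate 2 in 18 (median -0.01). Of the 37 probe sets 16 had their highest signal in dexamethasone replicate 1, the highest array for 16.3% of all probe sets. The 16 were 7 of 12 in HoxA, 5 of 10 in HoxB, 1 of 8 in HoxC and 3 of 7 in HoxD. With the intensities as deposited the count was 7, and with quantile normalisation 15.

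The members that stood out in dexamethasone replicate 1 were neighbours on the HoxA cluster. Hoxa7, Hoxa9 and Hoxa10, which follow each other in that order among the Hox genes of the cluster, were more than 1 log2 unit above every other array, as were 0.636% of all probe sets, and no other Hox probe set was. They were singled out after the values were seen. Hoxa9, used in trunk patterning and in blood progenitors, had a signal of 135 in that array with 1455626_at, against 7.88 in dexamethasone replicate 2, 2.61 with DBZ, 2.03 and 3.99 with the combination and 7.94 and 6.44 with vehicle. The other 6 arrays all lay below the pseudocount.

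Hoxa10, needed for the uterus and the lumbar region, had 61.5 in dexamethasone replicate 1, against 16.7 in replicate 2, 5.72 with DBZ, 0.805 and 9.37 with the combination and 1.65 and 14.3 with vehicle. Hoxa7, a thoracic patterning gene, had 30.8 in dexamethasone replicate 1, against 2.93 to 8.21 in the other 6 arrays. Further along the row, Hoxa11 had 48.7 in dexamethasone replicate 1 and 2.49 to 26.1 in the other arrays. Hoxa13, the hindgut member of the cluster, had 38.1 in that array and 5.53 to 32.4 in the others, the highest being a vehicle array. The antisense transcript Hoxa11os, which is not a member, had 72.5 in dexamethasone replicate 1 and 2.59 to 13.3 in the other arrays. The other Hoxa9 probe set, 1421579_at, did not share the difference, with 42.7 in that array against 46.2 and 49.2 with vehicle. The number of members more than 1 log2 unit above every other array was 1 (Hoxa9) with the intensities as deposited and with a pseudocount at the 40th percentile, 2 (Hoxa9 and Hoxa10) with quantile normalisation, and 5 with a pseudocount at the 10th percentile, where Hoxb3 and Hoxb6 joined.

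**Figure D5:**
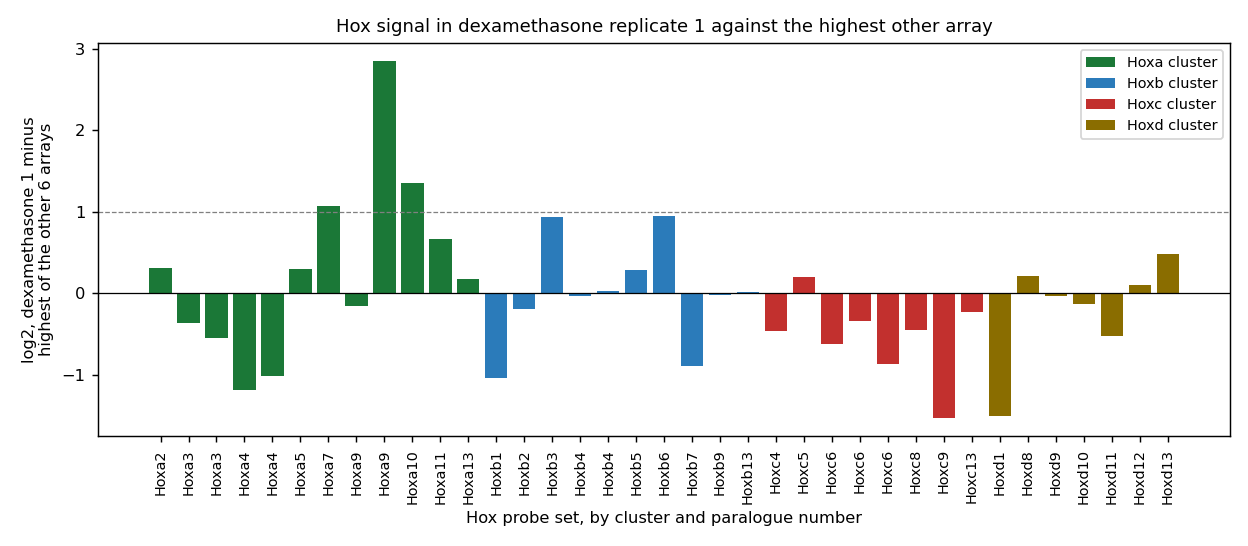
Difference on the log2 scale between dexamethasone replicate 1 and the highest of the other 6 arrays for each of the 37 Hox probe sets, by cluster and paralogue number, with a dashed line at 1. Hoxa7, Hoxa9 (1455626_at) and Hoxa10 pass the line and Hoxb3 and Hoxb6 come close to it.

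Part of the colon list was high in the same dexamethasone array. Of 15 colon-list genes with a probe set, 7 had their highest signal there, against 16.3% of all probe sets. More than 1 log2 unit above every other array were 5 of the 15, against 0.636% of all. Others did not peak there, such as Slc26a3 with 914 against 1273 and 1188 with vehicle. Tff3 had 7118 there and 7075 to 11082 in the other arrays. Carbonic anhydrase 1 (Car1) had 7427 in that array and 1.44 to 52.4 in the others, the serum amyloid protein Saa1 had 1653 and 1.45 to 20.5, and the goblet cell peptide Retnlb had 124 and 1.64 to 8.42. The summed colon list was 35350 in that array, 21545 in the other dexamethasone array, 24217 with DBZ, 17404 and 27736 with the combination, and 24941 and 21956 with vehicle. Dexamethasone replicate 1 was also the highest array for 10 of 16 smooth muscle, 11 of 20 fibroblast and matrix and 5 of 7 adipocyte genes. It was so for 0 of 12 epithelial, 0 of 12 ileal and 1 of 17 proximal small intestine genes, and for 16.3% of all probe sets. No gene of these lists was listed at 0, and their part in the Hox signals was not tested.

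The 250 bases before the start of these 3 genes are printed because their signals were high together. They come from RefSeq's promoter table (GRCm38.p6, minus strand), which held 18 of the 31 genes, Hoxc8 not among them. Capitals mark matches to TTTATG on either strand, the core of the site bound by the caudal factors Cdx1 and Cdx2, which act upstream of Hox genes in the embryo. Of Hoxa10 the entry farther upstream is given.
Hoxa7, chr6:52218574-52218823: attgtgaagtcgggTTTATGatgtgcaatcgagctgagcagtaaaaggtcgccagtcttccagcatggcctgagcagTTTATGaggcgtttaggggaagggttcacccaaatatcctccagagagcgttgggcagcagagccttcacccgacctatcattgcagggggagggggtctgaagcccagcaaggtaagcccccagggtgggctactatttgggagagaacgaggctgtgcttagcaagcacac
Hoxa9, chr6:52227371-52227620: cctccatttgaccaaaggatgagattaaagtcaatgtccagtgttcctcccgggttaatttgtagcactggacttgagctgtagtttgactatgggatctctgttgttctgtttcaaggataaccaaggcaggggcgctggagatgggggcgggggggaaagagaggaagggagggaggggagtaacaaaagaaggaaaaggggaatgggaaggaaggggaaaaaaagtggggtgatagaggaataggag
Hoxa10, chr6:52240855-52241104: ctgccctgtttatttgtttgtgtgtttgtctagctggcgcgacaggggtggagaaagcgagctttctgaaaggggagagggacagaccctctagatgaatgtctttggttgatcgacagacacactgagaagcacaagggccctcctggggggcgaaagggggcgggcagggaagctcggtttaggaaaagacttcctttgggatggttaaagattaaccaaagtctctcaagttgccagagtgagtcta

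TTTATG occurred in 10.8% of all 32851 promoters of this length, and among the 20 Hox promoters in those of Hoxa7 and Hoxd11. Hoxa7 held it at 236 and 173 bases before the start, and the Hoxa9 and Hoxa10 windows did not hold it. TGATTTAT, a joint Hox and Pbx site which can overlap TTTATG, occurred in 0.837% of all promoters. The full palindromic glucocorticoid receptor site and the spaced direct repeat bound by retinoic acid receptors were also searched on both strands and occurred in 0.00913% each. None of these 3 motifs was in a Hox window. The median GC content was 59.2% in the Hox promoters and 52.4% in all promoters.

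Treated groups were also compared with each other. With combination against DBZ and with combination against dexamethasone limma called 0 of 10 Hox probe sets, against 0.330% and 0.0293% of all tested probe sets, and at unadjusted p under 0.05 there were 0 and 1. Hoxc8 had -0.72 ± 0.36 in the combination relative to DBZ (adjusted p = 0.461) and -0.71 ± 0.29 relative to dexamethasone (adjusted p = 0.489), its combination signals of 63.9 and 84.9 lying below the 129 in the DBZ array and the 108 and 152 with dexamethasone. Hoxb5 had -1.03 ± 0.67 relative to DBZ (adjusted p = 0.583) and Hoxb6 had -0.71 ± 0.40 relative to dexamethasone (adjusted p = 0.615).

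The interaction asks whether DBZ changed a gene differently with and without dexamethasone. Hoxc8 was the 1 of 10 Hox probe sets with a negative interaction that passed, against 1.93% of all tested probe sets, with -3.34 ± 0.46 (limma adjusted p = 0.00674). The difference was 2.63 between DBZ and vehicle and -0.71 between the combination and dexamethasone. Marker genes moved with it: 4 of 15 tested smooth muscle genes, 5 of 17 fibroblast and matrix genes and 8 of 11 ileal genes had a negative interaction that passed. Among these ileal genes were Fabp6, Slc10a2, Pyy and Slc5a8, which were tested because their treated arrays were high. Of 15 tested proximal small intestine genes 9 had a positive interaction that passed. By sign alone it was positive in 12, with a median of 1.95 against 0.002 for all tested probe sets. Akp3, among those that passed, had 1.81 to 27.0 in treated arrays and was tested because its vehicle arrays were high. The summed signal of the proximal list was 24868 to 43599 in treated arrays and 49255 and 50639 in vehicle arrays. The part of these genes in the Hoxc8 value was not tested. The term contains both vehicle arrays, whose Hoxc8 signals were 12.7 and 8.63. Hoxb5 had -1.54 ± 0.86 (adjusted p = 0.354), and Hoxb6 had -1.55 ± 0.63 and did not pass either.

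Genes that regulate Hox clusters or bind with their products were also followed. Of 2 tested Cdx and Hox-flanking genes, Cdx2 fell in the mean of the treated groups, as did 6.97% of all tested probe sets. Cdx2, the intestinal caudal factor, had signals of 507 and 680 with dexamethasone, 647 in the DBZ array and 596 and 730 with the combination, against 1304 and 1352 with vehicle (1422075_at). The groups did not overlap, and the mean of the treated groups differed by -1.06 ± 0.16 (adjusted p = 0.00305). Its other probe set, 1422074_at, had 178 and 192 with dexamethasone, 89.6 in the DBZ array and 228 and 155 with the combination, against 239 and 232 with vehicle. It gave -0.64 ± 0.19 for the mean (adjusted p = 0.0479), but of the single groups it passed with DBZ alone (-1.28 ± 0.27, adjusted p = 0.0229), not with dexamethasone (-0.33 ± 0.22, adjusted p = 0.384) or the combination (-0.30 ± 0.22, adjusted p = 0.434). The DBZ array was also the one with the highest 3' to 5' ratios, whose part was not tested. Cdx1 had 548 and 509 with dexamethasone, 443 in the DBZ array and 322 and 414 in the combination arrays, against 552 and 354 with vehicle, and differed by -0.01 ± 0.19 (adjusted p = 0.985). Cdx4, Evx1 and Evx2, the last 2 at the tail ends of HoxA and HoxD, averaged below the filter.

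Limma called 0 of 5 tested TALE cofactors, homeodomain partners of Hox proteins, in the mean of the treated groups (median -0.09, with 3 at unadjusted p under 0.05). Meis1 had 56.5 to 81.3 in treated arrays and 37.7 in both vehicle arrays, a difference of 0.75 ± 0.23 that did not pass (adjusted p = 0.0512). Pknox1 had -0.78 ± 0.24 (adjusted p = 0.0567) and was called lower in DBZ against vehicle. Meis2 had 0.65 ± 0.25 (adjusted p = 0.112) and Pbx3 -0.16 ± 0.21 (adjusted p = 0.646).

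Of 27 tested Polycomb and trithorax regulators, which hold Hox clusters silent or active, 2 rose and 1 fell in the mean of the treated groups (median -0.15). Of all tested probe sets 8.10% rose and 6.97% fell in that comparison, so the list held no more calls than that background. Jarid2, a partner of the Polycomb methyltransferase, rose by 0.67 ± 0.15 (adjusted p = 0.0175) and Cbx6, a reader of its mark, by 0.68 ± 0.17 (adjusted p = 0.0249). Phf1 fell by 0.82 ± 0.19 on the log2 scale (adjusted p = 0.0173), and Eed had -0.49 ± 0.15 (adjusted p = 0.0570). Among 6 tested genes of retinoic acid signalling, which sets Hox boundaries in the embryo, limma called 0 in that mean (2 at unadjusted p under 0.05; median 0.02). Aldh1a1, which makes retinoic acid, was called lower in dexamethasone against vehicle, with 2894 and 2816 in the dexamethasone arrays against 5038 and 4817 in the vehicle arrays. Aldh1a2 had 0.73 ± 0.24 (adjusted p = 0.0692), Aldh1a1 -0.39 ± 0.14 (adjusted p = 0.0842), Rarg -0.44 ± 0.25 (adjusted p = 0.260) and Aldh1a3 0.15 ± 0.18 (adjusted p = 0.609).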

How the data were processed

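RNA of mouse small intestine was measured on Affymetrix arrays of 22690 probe sets. The deposited intensities are MAS5 signals, per the submitters' processing notes, of a version no source used here states. Arrays were rescaled to a common trimmed mean of 250 (2% off each end), and log2 was taken after adding 12.3 (20th percentile of all signals). Leaving out 64 control probe sets and those averaging under 38.8 kept 13638. A single gene symbol was annotated for 20393 probe sets, several for 691 and none for 1606. The design assumed 2 DBZ arrays; the near-identical columns were counted as 1, whose spread is taken from the other groups. Of 8 sample columns 0 were unused.

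Group means were fitted with limma 3.58.1 in R 4.3.3 with an intensity trend; p-values were 2-sided and Benjamini-Hochberg adjusted at 0.05 over all tested probe sets. Errors are SE on log2 changes, SD on signals. The code was tested on simulated data. Every tested Hox probe set was described in full, and of each regulator list up to 4 members by smallest p, with Cdx1 and Cdx2; Fabp6 and Reg1 were given as context. Each listed gene was represented by its probe set of highest mean signal. The members and lists were chosen with earlier results of these data known. Alternatives changed the scaling, pseudocount, filter, variance model, samples and replicate block.

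By limma, in the mean of the treated groups, 2 of 15 tested proximal small intestine genes rose and 9 fell, and 1 of 9 colon genes fell. The calls were 0 of 9 haematopoietic, 0 of 6 adipocyte, 0 of 12 epithelial and 0 of 2 pancreatic acinar genes, with 1, 2, 2 and 0 at unadjusted p under 0.05.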

Additional observations from a re-analysis of the deposited data

Results flagged for a closer look

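The interaction flagged for Hoxc8 contains both vehicle arrays, where its signal was lowest. The interaction was -3.34 ± 0.46 on the log2 scale (limma adjusted p = 0.00674), from a difference of -0.71 ± 0.29 between the combination and dexamethasone and of 2.63 ± 0.36 between DBZ and vehicle. Over the 18 alternatives it lay between -3.97 and -2.34 (adjusted p between 0.00181 and 0.0439). It rests on 1 DBZ array and on the low signals of both vehicle arrays. Fabp6, which also separated vehicle from treated arrays, had -12.1 in the same term. The part of this separation in the Hoxc8 value was not tested.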

How the results depend on the processing

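The intensities as deposited, with vehicle arrays at a trimmed mean of 500, moved the median of all tested probe sets to -0.98 and the calls in the mean of the treated groups to 165 higher and 11465 lower of 13863, against 1104 and 950 of 13638 after scaling. With them limma called 3 of 10 Hox probe sets in dexamethasone, 3 in DBZ and 4 in the combination, each against vehicle. Over all 13863 tested probe sets the calls in these comparisons were 10404, 9515 and 11055, so the Hox counts were below that background. In the mean of the treated groups 4 Hox probe sets were called. After scaling the Hox count was 1 in each. The mean difference then reversed for Hoxa5 (-0.40), Hoxb2 (-0.80), Hoxb5 (-0.22) and Hoxc6 (-0.38 and -0.44), and quantile normalization reversed Hoxb4 (0.011). Both DBZ columns as separate arrays gave 2 calls in dexamethasone (Hoxb6 and Hoxc8) and 2 in DBZ (Hoxc6 and Hoxc8), but this setting counts 1 array as 2. Over all 13625 tested probe sets it gave 2619 and 4079 calls. No filter gave 2 in the mean of the treated groups (Hoxa4 and Hoxc8). No paired design is given by the labels and the replicates share only a number (correlations of deviations 0.115, 0.0490 and -0.122). With the replicate block limma called 2 of 10 Hox probe sets in dexamethasone against vehicle (Hoxb6 and Hoxc8), and 1492 of all 13638. Leaving out 1 array at a time gave 1 to 2 calls in dexamethasone, 1 in DBZ, 0 to 1 in the combination (0 without combination replicate 2) and 1 to 2 in the mean of the treated groups (2 without dexamethasone replicate 2). The mean difference then ranged from -0.077 to 1.04 for Hoxa5, -0.13 to 0.29 for Hoxb2, -0.31 to 0.15 for Hoxb3 and -0.37 to 0.26 for Hoxb4. Counts of Hox probe sets with groups apart or highest in dexamethasone replicate 1 moved as given beside them. Hoxc8 kept its direction in every alternative run, between 1.57 and 2.94 in the mean of the treated groups (adjusted p 0.000225 to 0.00895). The settings tried for these counts by array were chosen after seeing the data. Scaling removes the offset between deposited trimmed means of 250 in treated and 500 in vehicle arrays. The cause of the shifts with other settings was not tested. Low signals near the pseudocount and 7 arrays limit the precision.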
